A study of Mus musculus with 8 samples.

Results

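Matrix metalloproteinases (MMPs) and the tissue inhibitors of metalloproteinases (TIMPs) were followed in stromal cells that had been sorted from small intestines of mice. The 9 genes were chosen by name from the 53801 rows of the count table: the gelatinase genes Mmp2 and Mmp9, the stromelysin genes Mmp3 and Mmp10, the collagenase gene Mmp13, the membrane-type gene Mmp14 and the inhibitor genes Timp1, Timp2 and Timp3. All 9 were found, and all 9 passed the filter on low counts. The samples were 8 RNA-seq libraries of YFP+ cells without CD45 (a leukocyte marker) and CD31 (an endothelial marker). Of these, 4 libraries held cells with PDGFRα on their surface (PDGFRα+) and 4 held cells without it (PDGFRα-). Both fractions came from LTβRfloxPDGFRα/YFP mice, so the floxed lymphotoxin β receptor gene and YFP are common to all libraries, and mice without the floxed gene were not analysed here. The labels give no age, no promoter of a recombinase and no number of animals. Whether each library of a fraction stands for a mouse of its own is not stated either, so p-values refer to the variation among these libraries and that variation may be technical.

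MMPs are zinc-dependent endopeptidases that are made as inactive proenzymes and cut collagens, laminins, proteoglycans and many surface proteins. TIMPs block active MMPs by occupying the catalytic site, and their levels relative to MMPs help to set how much matrix is degraded. TIMP2 has a further role, since together with the membrane-bound MMP14 it brings pro-MMP2 to the cell surface, where MMP14 cleaves it. In the gut wall, fibroblasts are a main source of MMP2, MMP14 and the TIMPs, while the stromelysins, MMP13 and MMP9 are known as genes induced in inflammation and wound repair.

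Mmp3, Mmp10 and Mmp13 lie in 1 cluster of MMP genes on chromosome 9, and their promoters are printed because the values of Mmp10 did not overlap between the fractions, while those of its neighbours with the same short motifs did. The sequences are from RefSeq (GRCm38.p6), plus strand, 5′ to 3′, with 250 bases before and 50 bases from the start of the gene. Capitals mark TGANTCA, where N is any base, and TATAAA, the TATA box that positions transcription initiation. The match was TGAGTCA in Mmp10 and Mmp3 and TGACTCA in Mmp13, the letters bound by the inducible transcription factor AP-1.
Mmp10 (chr9:7502092-7502391): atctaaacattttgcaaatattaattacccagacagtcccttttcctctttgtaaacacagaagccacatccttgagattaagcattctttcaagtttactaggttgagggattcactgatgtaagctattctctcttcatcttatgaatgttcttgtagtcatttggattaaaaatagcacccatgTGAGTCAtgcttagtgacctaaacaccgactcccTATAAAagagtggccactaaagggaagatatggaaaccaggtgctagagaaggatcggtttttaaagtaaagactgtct
Mmp3 (chr9:7445572-7445871): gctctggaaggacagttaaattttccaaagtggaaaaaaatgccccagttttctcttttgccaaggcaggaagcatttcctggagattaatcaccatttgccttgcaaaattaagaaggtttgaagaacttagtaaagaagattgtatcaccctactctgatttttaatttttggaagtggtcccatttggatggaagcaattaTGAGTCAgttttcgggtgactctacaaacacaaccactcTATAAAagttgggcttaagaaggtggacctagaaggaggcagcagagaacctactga
Mmp13 (chr9:7272264-7272563): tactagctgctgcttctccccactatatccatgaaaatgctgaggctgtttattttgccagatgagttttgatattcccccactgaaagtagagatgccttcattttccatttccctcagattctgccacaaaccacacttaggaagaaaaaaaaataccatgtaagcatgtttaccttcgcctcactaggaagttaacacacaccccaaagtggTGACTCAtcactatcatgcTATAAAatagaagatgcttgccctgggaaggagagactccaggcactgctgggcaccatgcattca
The AP-1 letters began 63 bases before the start in Mmp10, 46 bases before it in Mmp3 and 35 bases before it in Mmp13. These distances use the RefSeq start, which for Mmp10 lies before the GENCODE start given below, 7502352. The TATA letters followed at 29, 7 and 16 bases before the start, in the same order of genes. Both strands were searched, and matches of the different motifs did not overlap. Of 32851 promoters of the same length, 7.81% held TGANTCA, 13.6% held TATAAA and 1.54% held both. Promoters of 7 of the 9 genes were in the table. Those of Mmp14, Timp1, Timp2 and Timp3 held neither of these motifs but 1 or 2 copies of the GC box GGGCGG, which 35.7% of all promoters held. A match describes the letters and does not show that a factor binds there.

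Libraries held 12.9 to 35.1 times 1e+06 counts. The fractions were compared with edgeR's quasi-likelihood test over 15643 genes, in a model of the fraction alone, and a gene was called when its p, adjusted by Benjamini and Hochberg's method, was under 0.05. In this way 0.243% of all genes tested were called, 30 (0.192%) as higher and 8 (0.0511%) as lower in PDGFRα+ cells, and these counts ran from 7 to 39 and from 0 to 11 when 1 library was left out. The higher count was lowest without PDGFRα- library 3, and also moved by over 1.5 times without PDGFRα- library 2 (11) or PDGFRα+ libraries 1, 2 or 3 (19, 12 and 10). The lower count was 0 without PDGFRα+ library 3 or PDGFRα- library 3, 1 without PDGFRα- library 2, 3 without PDGFRα+ library 2, and 4 without library 1 of either fraction. RNA of the sort marker gene Pdgfra averaged 597 ± 69.2 CPM (the count over the TMM-scaled library size, times 1e+06) in PDGFRα+ and 652 ± 124 CPM in PDGFRα- libraries (SD, n = 4 each), a log2 fold change of -0.13 that did not pass the threshold (adjusted p = 0.971 by edgeR). The groups overlapped, so Pdgfra RNA did not separate the fractions. Sorting used the surface protein, and how far the fractions differ in that protein was not tested. Of the 10024 exon bases of Pdgfra, 652 overlap other genes. The 7 fibroblast markers were abundant in every library, with summed levels of 87724 to 113220 CPM in PDGFRα+ and 118080 to 167370 CPM in PDGFRα- libraries, ranges that do not overlap. Taken singly, 3 of the 7 had groups that did not overlap, beside 5.05% of all genes tested. EdgeR called 0 of the 7 (lowest adjusted p = 0.297), and DESeq2 called 2 as lower, beside 0.669% of genes. With the replicate number as a block, edgeR called 3 as lower, beside 146 of 15643 genes. The authors' deposited table lists Col1a1, Col1a2, Col3a1 and Dcn as lower, and not Lum, Pdgfra or Pdgfrb, beside 2.52% of all genes.

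None of the 9 genes passed the threshold in this test. Without adjustment, edgeR's p was under 0.05 for Mmp10 as higher and Mmp9 as lower, beside 3.73% of all genes tested as higher and 3.22% as lower. DESeq2 called 1 of 9, Mmp10 as higher (adjusted p = 0.0153), beside 0.899% of the genes it tested as higher and 1.57% in either direction. Limma-voom called 0 of 9, beside 0.288% of genes. With no filter on low counts, edgeR called 1 of 9, Mmp9 as lower, beside 0.376% of genes. Without PDGFRα- library 1, edgeR called 1 of 9, Mmp10 as higher, beside 0.16% of genes. The authors' deposited table, whose model also has a term for the replicate number, lists 1 of the 9 as higher, Mmp10, and 1 as lower, Mmp9, beside 2.3% and 2.52% of all genes with an adjusted p in that table. The groups did not overlap for 1 of the 9 genes, Mmp10, beside 5.05% of all genes tested (2.69% with PDGFRα+ above PDGFRα-). The median log2 fold change of the 9 genes was 0.15, beside -0.0087 over all genes tested. The plot of values by library shows overlapping groups for the abundant genes Mmp2, Mmp14 and Timp2, and the wide spread of Mmp9, Mmp3, Mmp10, Mmp13 and Timp1.

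**Figure D1:**
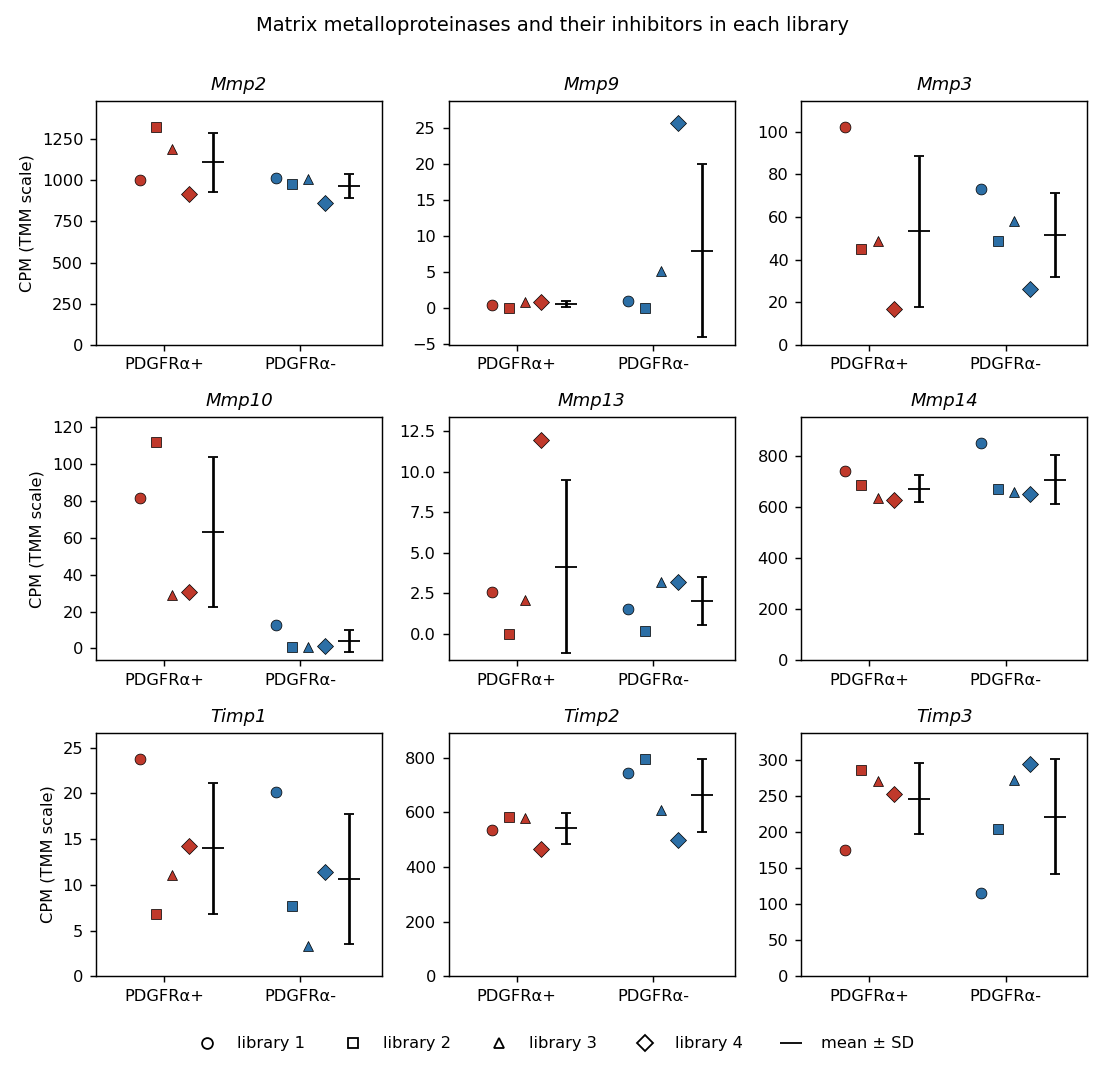
CPM of the 9 genes in each library, with PDGFRα+ on the left and PDGFRα- on the right of each panel, 1 symbol per library, and mean ± SD beside them. Mmp10 is the gene whose groups do not overlap, with 28.8 to 112 CPM in PDGFRα+ and 0.702 to 12.7 CPM in PDGFRα- libraries.

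Per length, Mmp2 was the highest of the 9 genes in both fractions, at 329 ± 54.1 RPKM in PDGFRα+ and 286 ± 21.1 RPKM in PDGFRα- libraries (SD, n = 4 each). RPKM here is CPM per kilobase of annotated exons. Timp2 came next, at 139 ± 14.3 RPKM in PDGFRα+ and 170 ± 34.5 RPKM in PDGFRα- libraries, and its range overlapped that of Mmp14, at 113 ± 8.79 RPKM in PDGFRα+ and 119 ± 16.1 RPKM in PDGFRα- libraries. These 3 genes, which encode the partners of MMP2 activation, stood above the other 6 in every library. In PDGFRα+ libraries the order went on with Mmp10, Timp3, Mmp3 and Timp1 (36.8 to 15.7 RPKM on average), each overlapping its neighbour. In PDGFRα- libraries it went on with Mmp3, Timp3, Timp1 and Mmp10 (28.6 to 2.25 RPKM on average), again with overlapping ranges. By mean level Mmp10 had rank 4 in PDGFRα+ and rank 7 in PDGFRα- libraries. Mmp13 and Mmp9 had the lowest means in both fractions, and in PDGFRα- libraries their ranges overlapped that of Mmp10. In PDGFRα+ libraries 0.242% to 0.322% of counts fell on the 9 genes together, and in PDGFRα- libraries 0.239% to 0.26%.

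Mmp10 encodes stromelysin 2, which cuts proteoglycans, laminin and other proMMPs (chromosome 9, 7502352 to 7510240, plus strand, GRCm38, ENSMUSG00000047562). It stood at 81.7, 112, 28.8 and 30.8 CPM in PDGFRα+ libraries 1 to 4, against 12.7, 0.704, 0.702 and 1.41 CPM in PDGFRα- libraries 1 to 4. Every PDGFRα+ library was above every PDGFRα- library, and PDGFRα- library 1 stood apart as the highest of its fraction. The counts behind these values were 2852, 2735, 892 and 415 reads in PDGFRα+ libraries, against 312, 14, 9 and 28 reads in PDGFRα- libraries. The means were 63.3 ± 40.7 CPM in PDGFRα+ and 3.88 ± 5.89 CPM in PDGFRα- libraries (SD, n = 4 each), a ratio of 16.3. Its log2 fold change was 3.99 ± 1.16 (SE), with a 95% interval from 1.23 to 6.75, and did not pass the threshold (edgeR adjusted p = 0.421, with 0.0128 to 0.802 over 15 alternatives). Without PDGFRα- library 1 it was 6.05 and passed (edgeR adjusted p = 0.0128). The authors' deposited table gives a log2 fold change of 4.90 with an adjusted p of 6.09e-07. In bulk libraries a larger share of cells with Mmp10 and more Mmp10 RNA per cell cannot be told apart.

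Mmp3, which encodes stromelysin 1, the closest relative of MMP10 in activity (chromosome 9, 7445822 to 7455975, plus strand, ENSMUSG00000043613), starts 56.5 kb before the start of Mmp10. It stood at 102, 45.1, 48.9 and 16.9 CPM in PDGFRα+ libraries 1 to 4, against 73.4, 48.7, 58.0 and 26.1 CPM in PDGFRα- libraries 1 to 4. The groups overlapped, and library 1 was the highest and library 4 the lowest in each fraction. As a log2 fold change the difference was 0.05 ± 0.50 (SE), with a 95% interval from -1.09 to 1.20 (edgeR adjusted p = 0.997). The ratio of Mmp10 to Mmp3 per length was 0.836, 2.6, 0.616 and 1.9 in PDGFRα+ libraries 1 to 4, against 0.181, 0.0151, 0.0127 and 0.0564 in PDGFRα- libraries 1 to 4. This ratio, a description chosen after the values were seen, did not overlap between the fractions. The transcripts of the pair share sequence, since 12.2% of the 30-base words of Mmp10 also occur in Mmp3, so that the counting could place some of their reads in either gene.

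Mmp13, the interstitial collagenase gene of mouse stroma (chromosome 9, 7272514 to 7283331, plus strand, ENSMUSG00000050578), was scarce. It stood at 2.55, 0, 2.07 and 12 CPM in PDGFRα+ libraries 1 to 4, against 1.55, 0.151, 3.20 and 3.17 CPM in PDGFRα- libraries 1 to 4. PDGFRα+ library 2 had 0 counts, which allows up to 0.123 CPM (3 counts, counting error only). PDGFRα+ library 4 alone was above the PDGFRα- range. On the log2 scale the fold change was 1.03 ± 1.26 SE (adjusted p = 0.970 by edgeR), and it was -0.38 without PDGFRα+ library 4.

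The cluster holds 10 annotated MMP genes over 427 kb, of which 4 were tested, Mmp13, Mmp3, Mmp10 and Mmp27. Mmp27, named for its place in the cluster, encodes an MMP of little-known function and starts 69.0 kb after the start of Mmp10. It stood at 4.76, 3.36, 4.55 and 2.97 CPM in PDGFRα+ libraries 1 to 4, against 8.22, 17.7, 8.11 and 8.19 CPM in PDGFRα- libraries 1 to 4. The groups did not overlap and the direction was opposite to that of Mmp10 (difference of -1.43 ± 0.43 SE on the log2 scale, adjusted p = 0.299 by edgeR). DESeq2 called Mmp27 lower (adjusted p = 0.0275), while the authors' deposited table lists an adjusted p of 0.0508. The other 6 genes of the cluster were under the filter. Mmp7, which encodes matrilysin, known in the intestine from Paneth cells, had 0 counts in the 4 PDGFRα+ libraries and 0, 23.0, 0.234 and 3.57 CPM in PDGFRα- libraries 1 to 4. The 6 epithelial markers summed to 3.93, 4.06, 1.29 and 30.1 CPM in PDGFRα+ libraries 1 to 4, against 7.41, 44.5, 12 and 14.0 CPM in PDGFRα- libraries 1 to 4, and were thus highest in the library that was highest in Mmp7. Their part in it was not tested. Mmp12, the macrophage elastase gene, had counts in PDGFRα- library 4 alone (3.42 CPM). Mmp1a, Mmp1b, Mmp8 and Mmp20 did not exceed 3.04 CPM in any library.

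**Figure D2:**
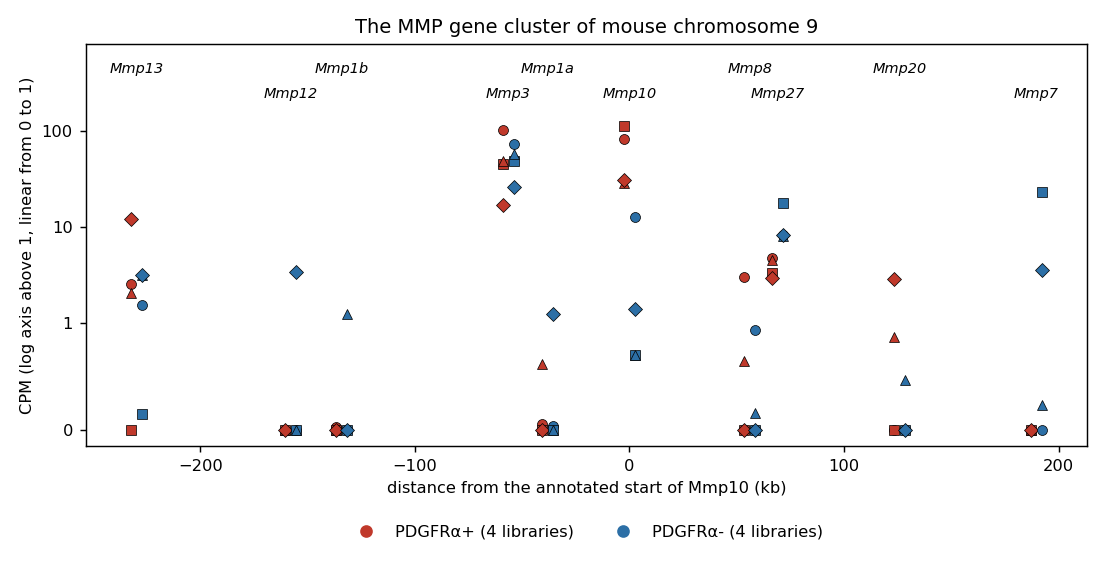
CPM of the 10 MMP genes of the chromosome 9 cluster in each library (axis logarithmic above 1 CPM and linear below), at their distance in kb from the annotated start of Mmp10. PDGFRα+ libraries are red and left of PDGFRα- libraries, in blue, and the 2 sets separate at Mmp10 and, in the other direction, at Mmp27.

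Mmp2 encodes gelatinase A, which degrades basement membrane collagen and denatured collagen (chromosome 8, 92827291 to 92853420, plus strand, ENSMUSG00000031740). It stood at 1003, 1324, 1189.5 and 920.1 CPM in PDGFRα+ libraries 1 to 4, against 1013, 979, 1009 and 862 CPM in PDGFRα- libraries 1 to 4. PDGFRα+ libraries 2 and 3 were above the PDGFRα- range, and the other 2 lay within it. Its log2 fold change was 0.20 ± 0.16 (SE), with a 95% interval from -0.14 to 0.54 (edgeR adjusted p = 0.930), so that a difference beyond 1.5-fold in either direction lay outside the interval.

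Mmp9 encodes gelatinase B, a product of neutrophils, macrophages and other activated cells (chromosome 2, 164940780 to 164955850, plus strand, ENSMUSG00000017737). It stood at 0.373, 0.0410, 0.775 and 0.891 CPM in PDGFRα+ libraries 1 to 4, against 0.977, 0, 5.15 and 25.6 CPM in PDGFRα- libraries 1 to 4. PDGFRα- libraries 3 and 4 were high, PDGFRα- library 1 was just above the highest PDGFRα+ library, and PDGFRα- library 2 was below all of them, so the groups overlapped. The 0 counts of PDGFRα- library 2 allow up to 0.151 CPM. As a log2 fold change the difference was -3.94 ± 1.61 (SE), with a 95% interval from -7.57 to -0.32 (edgeR adjusted p = 0.650), and it was -1.96 without PDGFRα- library 4 (edgeR adjusted p = 0.976). The authors' deposited table gives a log2 fold change of -2.58 with an adjusted p of 0.0324.

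The 2 libraries that were high in Mmp9 also had the highest summed level of leukocyte markers, although the gate excluded CD45+ cells. Ptprc, which encodes CD45, stood at 2.64, 1.64, 1.07 and 1.34 CPM in PDGFRα+ libraries 1 to 4, against 1.42, 0.804, 14.8 and 24.5 CPM in PDGFRα- libraries 1 to 4. Csf1r, the macrophage growth factor receptor gene, stood at 5.33, 2.7, 2.29 and 1.63 CPM in PDGFRα+ libraries 1 to 4, against 4.80, 6.64, 22.1 and 40.2 CPM in PDGFRα- libraries 1 to 4. The 10 leukocyte markers summed to 15.2 to 26.3 CPM in PDGFRα+ and 23.1 to 94.0 CPM in PDGFRα- libraries, and 7 of them were tested. PDGFRα- libraries 3 and 4 were the 2 highest of the 8 libraries for 4 of these 7, Ptprc, Csf1r, Lyz2 and Fcer1g. The macrophage marker genes Cd68 (10.7 CPM) and Tyrobp (3.42 CPM) were instead highest in PDGFRα+ library 4, and Adgre1 was highest in PDGFRα- library 3 (5.61 CPM) and next in PDGFRα+ library 1 (2.41 CPM). The neutrophil genes S100a8 and S100a9 were at or near 0 in every library (at most 0.780 CPM), and Itgam had 0 counts in all 8, where its exons overlap another gene on the same strand. The 6 endothelial markers were highest in PDGFRα- library 4 too, at 49.6 to 140 CPM in PDGFRα+ libraries and 72.3 to 469 CPM in PDGFRα- libraries. The part of these cells in the Mmp9 values was not tested.

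**Figure D3:**
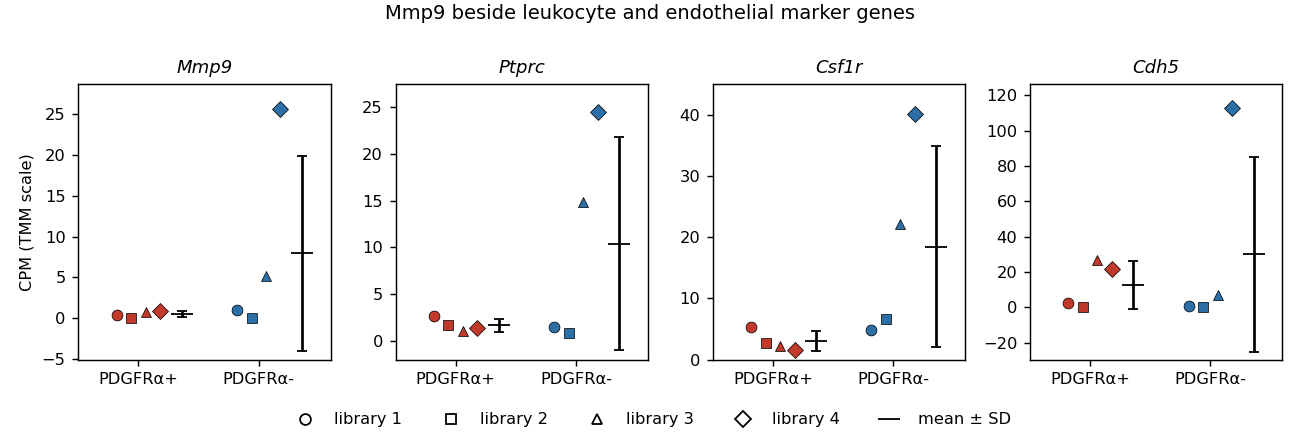
CPM of Mmp9, the leukocyte marker genes Ptprc and Csf1r and the endothelial marker gene Cdh5 in each library, PDGFRα+ left and PDGFRα- right, with mean ± SD beside the symbols. PDGFRα- library 4 (diamond) is the highest in all 4 panels, at 25.6 CPM for Mmp9 and 24.5 CPM for Ptprc.

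Mmp14 encodes the membrane-type MMP that activates MMP2 and cuts fibrillar collagen at the cell surface (chromosome 14, 54431612 to 54445364, plus strand, ENSMUSG00000000957). It stood at 742, 686, 635 and 629 CPM in PDGFRα+ libraries 1 to 4, against 852, 671, 660.3 and 649.9 CPM in PDGFRα- libraries 1 to 4. The groups overlapped, and PDGFRα- library 1 was the highest. On the log2 scale the fold change was -0.07 ± 0.15 (SE), with a 95% interval from -0.40 to 0.25 (edgeR adjusted p = 0.987).

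Timp2 encodes the inhibitor that also takes part in MMP2 activation (chromosome 11, 118301069 to 118355740, minus strand, ENSMUSG00000017466). It stood at 535, 584, 579.7 and 464 CPM in PDGFRα+ libraries 1 to 4, against 745, 795, 607 and 499 CPM in PDGFRα- libraries 1 to 4. Of the PDGFRα- libraries, 1, 2 and 3 were above all PDGFRα+ libraries, and library 4 lay within their range. Its log2 fold change was -0.29 ± 0.17 (SE), with a 95% interval from -0.66 to 0.08 (edgeR adjusted p = 0.858). Timp3 encodes an inhibitor that binds to the matrix and also blocks ADAM proteases (chromosome 10, 86300372 to 86349506, plus strand, ENSMUSG00000020044). It stood at 175, 286, 271 and 252 CPM in PDGFRα+ libraries 1 to 4, against 116, 204, 272 and 295 CPM in PDGFRα- libraries 1 to 4, and the groups overlapped. Its log2 fold change was 0.15 ± 0.26 SE (adjusted p = 0.980 by edgeR), and 1733 bases of its exons overlap Syn3 on the other strand.

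Timp1 encodes the inducible inhibitor, which also acts as a secreted growth-promoting factor (chromosome X, 20870166 to 20874735, plus strand, ENSMUSG00000001131). It stood at 23.8, 6.84, 11.0 and 14.3 CPM in PDGFRα+ libraries 1 to 4, against 20.2, 7.64, 3.35 and 11.5 CPM in PDGFRα- libraries 1 to 4. Library 1 was the highest in each fraction, and the groups overlapped. As a log2 fold change the difference was 0.39 ± 0.50 (SE), with a 95% interval from -0.69 to 1.47 (edgeR adjusted p = 0.970), and it was 0.0065 without PDGFRα+ library 1 and 0.90 without PDGFRα- library 1. The plot of fold changes with their intervals shows Mmp10 and Mmp9 as the genes whose unadjusted intervals leave out 0.

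**Figure D4:**
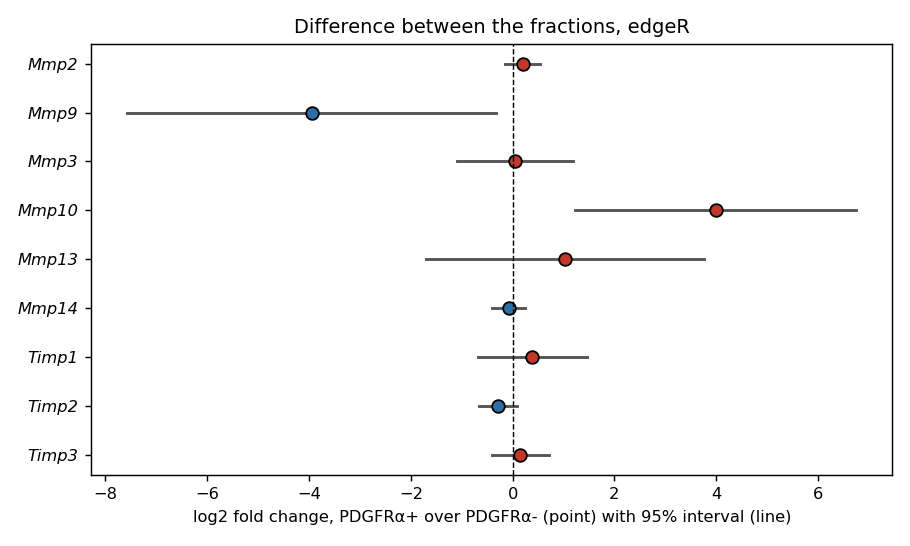
Log2 fold change of PDGFRα+ over PDGFRα- for the 9 genes (points, red above and blue below 0) with 95% intervals (lines) from edgeR with group as the only term. The intervals of Mmp10 (1.23 to 6.75) and Mmp9 (-7.57 to -0.32) leave out 0, while those of Mmp2, Mmp14, Timp2 and Timp3 are narrow and hold it.

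Summed per length, the 6 MMP genes reached 510 ± 77.4 RPKM in PDGFRα+ and 439 ± 42.9 RPKM in PDGFRα- libraries, and the 3 TIMP genes 185 ± 12.9 RPKM in PDGFRα+ and 209 ± 28.6 RPKM in PDGFRα- libraries (SD, n = 4 each). The ratio of TIMP to MMP RNA was 0.352, 0.322, 0.386 and 0.405 in PDGFRα+ libraries 1 to 4, against 0.463, 0.552, 0.433 and 0.456 in PDGFRα- libraries 1 to 4. All PDGFRα+ values were below all PDGFRα- values on this scale. Without division by length they overlapped, at 0.380 to 0.454 in PDGFRα+ and 0.451 to 0.592 in PDGFRα- libraries. The ratio is a description of genes chosen with results known, and it was not tested. Mmp2 made up 56.4% to 69.97% of the summed MMP level in PDGFRα+ and 61.0% to 67.5% in PDGFRα- libraries. The share of Mmp10 was 3.32% to 10.9% in PDGFRα+ and 0.0915% to 1.5% in PDGFRα- libraries. Timp2 made up 71.7% to 77.8% of the summed TIMP level in PDGFRα+ and 72.3% to 85.8% in PDGFRα- libraries.

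**Figure D5:**
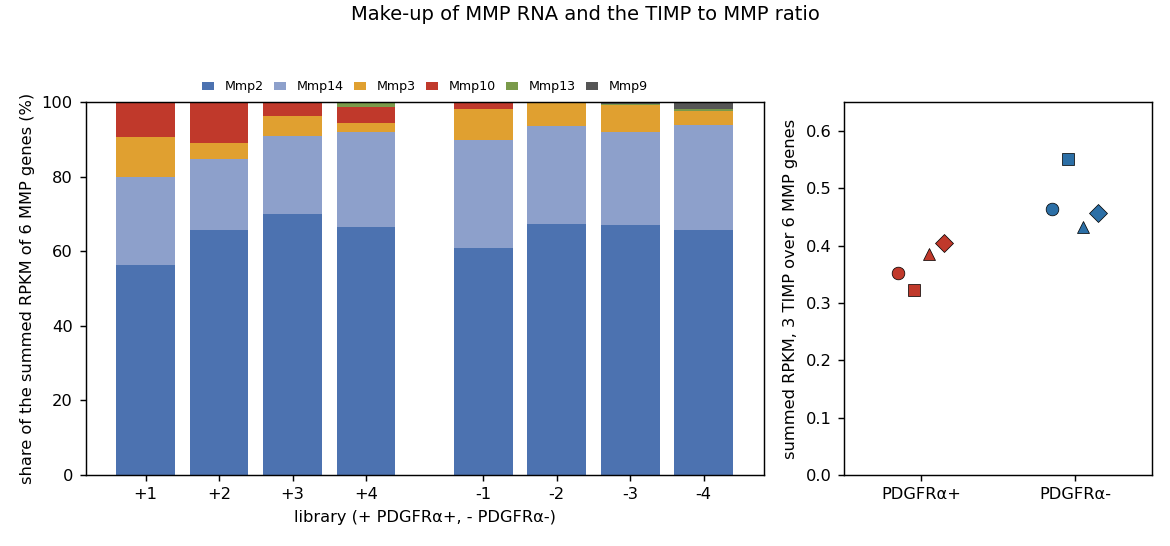
Left, share in percent of each MMP gene in the summed RPKM of 6 MMP genes per library, with the 4 PDGFRα+ libraries left of the 4 PDGFRα- libraries. Right, summed RPKM of 3 TIMP genes over that of 6 MMP genes, 0.322 to 0.405 in PDGFRα+ and 0.433 to 0.552 in PDGFRα- libraries (1 symbol per library).

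Among the 18 other MMP and TIMP genes 9 were tested, and edgeR called 0 of them, with Mmp27 alone under 0.05 before adjustment. DESeq2 called 1, Mmp27, beside 0.669% of genes as lower, and limma-voom called 0. Their median log2 fold change was -0.17. The groups did not overlap for 1 of the 9 tested, Mmp27, beside 5.05% of all genes tested. The most abundant was Mmp16, which encodes a membrane-type MMP, at 165 ± 68.7 CPM in PDGFRα+ and 202 ± 51.5 CPM in PDGFRα- libraries (SD, n = 4 each). Mmp19 averaged 108 ± 20.3 CPM in PDGFRα+ and 122 ± 23.8 CPM in PDGFRα- libraries, and Mmp23 averaged 41.3 ± 10.1 CPM in PDGFRα+ and 36.7 ± 14.5 CPM in PDGFRα- libraries. Mmp11, a stromelysin gene of stroma, averaged 24.6 ± 7.95 CPM in PDGFRα+ and 24.3 ± 2.39 CPM in PDGFRα- libraries. The membrane-type gene Mmp17 averaged 9.92 ± 5.10 CPM in PDGFRα+ and 7.88 ± 2.04 CPM in PDGFRα- libraries. The ranges overlapped for all 5. The edgeR adjusted p values of these 5 genes were 0.957 to 0.998. Exons of Mmp19 and Mmp11 overlap genes on the other strand. Timp4 had at most 2 reads in a library.

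Of 20 genes for the activation, surface control and uptake of MMPs, 19 were tested and edgeR called 0, as did DESeq2 and limma-voom, beside 0.243%, 1.57% and 0.288% of all genes. Before adjustment, edgeR's p was under 0.05 for 1 higher and 1 lower gene, beside 3.73% and 3.22% of all genes. Their median log2 fold change was 0.03. The most abundant were Lrp1, the endocytic receptor that clears MMP and TIMP complexes (2967 ± 603 CPM in PDGFRα+ and 3182 ± 892 CPM in PDGFRα- libraries), and Thbs1, which encodes thrombospondin 1 (1354 ± 959 CPM in PDGFRα+ and 1176 ± 747 CPM in PDGFRα- libraries), with exons of Thbs1 overlapping a gene on the other strand. The proprotein convertase gene Pcsk5 had a log2 fold change of 0.20 ± 0.20 (SE), Mrc2, the collagen uptake receptor gene, 0.03 ± 0.19 and Thbs2, whose protein takes part in MMP2 clearance, 0.49 ± 0.67, with edgeR adjusted p values of 0.963 to 0.996. Serpine2 and Reck were named after their values were seen. Serpine2, a serpin gene whose product inhibits plasminogen activators, stood at 57.0, 58.6, 90.4 and 68.0 CPM in PDGFRα+ libraries 1 to 4, against 31.3, 25.0, 57.9 and 32.9 CPM in PDGFRα- libraries 1 to 4 (difference of 0.90 ± 0.26 SE on the log2 scale, adjusted p = 0.276 by edgeR). Reck, the gene of a membrane-anchored inhibitor of MMP2, MMP9 and MMP14, stood at 83.2, 77.8, 96.1 and 98.3 CPM in PDGFRα+ libraries 1 to 4, against 99.3, 152, 128 and 126 CPM in PDGFRα- libraries 1 to 4, with no overlap (difference of -0.51 ± 0.17 SE on the log2 scale, adjusted p = 0.391 by edgeR). The groups did not overlap for 1 of the 19 tested genes, Reck, beside 5.05% of all genes tested. The authors' deposited table lists 3 of the 20 as higher (Serpine2, Cd44 and Thbs2), beside 2.3% of all genes, and 1 as lower (Reck, adjusted p 0.0356), beside 2.52%.

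All 17 genes of the receptors and transcription factors that act on MMP and TIMP genes were tested, and edgeR called 0, as did DESeq2 and limma-voom, beside 0.243%, 1.57% and 0.288% of all genes. Before adjustment, edgeR's p was under 0.05 for 1 higher and 3 lower genes, beside 3.73% and 3.22% of all genes. Of the 17 genes, 3 had positive and 14 negative log2 fold changes, beside 7682 positive and 7961 negative over all genes tested, with a median of -0.30. The AP-1 gene Fos stood at 2027, 1172, 2285 and 2833 CPM in PDGFRα+ libraries 1 to 4, against 3541, 2992, 2979.7 and 3733 CPM in PDGFRα- libraries 1 to 4, with no overlap (difference of -0.67 ± 0.23 SE on the log2 scale, adjusted p = 0.400 by edgeR). Jun had a log2 fold change of -0.58 ± 0.19, Fosb of -0.59 ± 0.36 and Junb of -0.48 ± 0.23 (SE), with adjusted p values of 0.398, 0.865 and 0.752 by edgeR, with exons of Jun and Junb overlapping genes on the other strand. Il6st, the shared receptor subunit for interleukin 6 and oncostatin M, averaged 493 ± 82.7 CPM in PDGFRα+ and 684 ± 121 CPM in PDGFRα- libraries (difference of -0.47 ± 0.17 SE on the log2 scale, adjusted p = 0.478 by edgeR). Its groups narrowly missed overlap, with a PDGFRα+ maximum of 599.6 CPM and a PDGFRα- minimum of 599.9 CPM. Il1r1, the interleukin 1 receptor gene, named after its values were seen, averaged 317 ± 21.4 CPM in PDGFRα+ and 251 ± 36.1 CPM in PDGFRα- libraries, with no overlap (difference of 0.34 ± 0.15 SE on the log2 scale, adjusted p = 0.693 by edgeR). The groups did not overlap for 3 of the 17 genes, Fos, Il6st and Il1r1, beside 5.05% of all genes tested. With the replicate number as a block, edgeR called 4 of the 17 as lower, beside 146 of 15643 genes, and 0 as higher, beside 209. The 4 were Fos, Jun, Junb and Il6st (edgeR adjusted p = 0.0188 to 0.0403), and the labels do not say what the number stands for. The authors' deposited table lists 6 of the 17 as lower (Il6st, Fos, Fosl2, Jun, Junb and Jund), beside 2.52% of all genes, and 0 as higher, beside 2.3%.

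Genes of most similar profile were sought as those with the smallest root mean square difference of centred log2(CPM + 0.5) over the 8 libraries, among 10434 genes with a mean of at least 5 CPM. For Mmp10 these were Frzb and Mki67, with differences of 1.05 and 1.08 against a span of 6.55 of Mmp10 itself on the same scale. For Mmp9 they were Cyfip2 and Lyve1 (0.694 and 0.713, span 5.71). Mmp3 was nearest to Samhd1 and Irf7 (0.216 and 0.218, span 2.56), and Timp1 to Srprb and Hps3. The measure is not scaled by spread, so genes with little spread can only be near other genes with little spread. Among these, Mmp2 was nearest to Aldh2 and Axl, Mmp14 to Ppp2r5d and Fam76a, Timp2 to 0610037L13Rik and Dusp11, and Timp3 to Tbc1d1 and Ankrd44. None of the 9 genes was among the 5 nearest of another, but Mmp9 and Mmp13, with means under 5 CPM, could not be. These distances describe 8 libraries and carry no test.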

How the data were processed

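RNA was measured in 8 libraries from a stranded, low-input total RNA kit (SMARTer Pico), per the labels' protocols. The submitters' processing notes name STAR 2.7.3a, cutadapt 3.4, DESeq2, featureCounts 2.0.1 and the build GRCm38 (mm10). Neither parameters nor strand setting nor annotation release is given in the sources used here. Whole-number raw counts per gene were deposited by the authors for each library, without normalization. In the same table the authors deposited rounded, size-factor-scaled values (a score, not used here). For their comparison, the authors deposited a linear ratio and its log2, with a raw p-value and an adjusted one. A DESeq2 model of replicate number and group gave the deposited dispersions to within 0.001% in 29254 of 29254 genes, while a model of group only was up to 7498% away.

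Of the 53801 rows, 53620 matched GENCODE M21 (GRCm38), used for positions and exon lengths. Symbols came from the table, and Itgam, with 2 rows, was taken by its annotated identifier. The primary test was edgeR 4.0.16 in R 4.3.3 (TMM, filterByExpr, robust quasi-likelihood, group only), fitted to the whole table, with SE as the absolute log2 fold change over the square root of F. CPM uses TMM-scaled library sizes. DESeq2 1.42.0, limma-voom (limma 3.58.1), other scalings and filters, the replicate number as a block and leaving out each library were alternatives. The edgeR script was tested on simulated data. Without molecular identifiers, reads need not stand for separate molecules, and limits from 0 counts cover counting error only. The genes and lists were chosen with earlier results of these data known. Named were the 9 genes, in each further list the called genes and the 5 with the highest mean CPM, Ptprc, Pecam1, Epcam, Myh11 and Pdgfra as gate or cell type markers, and the 2 nearest genes in profile of each of the 9 (those of Mmp13 are not reported here). Genes named beyond this are marked as named after their values were seen or stand as cluster neighbours or markers.

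Pecam1 (CD31, a gate marker), Epcam (epithelium) and Myh11 (muscle) averaged 22.7, 0.316 and 448 CPM in PDGFRα+ and 42.9, 1.46 and 550.1 CPM in PDGFRα- libraries. Pecam1 stood at 20.95, 4.63, 35.2 and 30.2 CPM in PDGFRα+ libraries 1 to 4. In PDGFRα- libraries 1 to 4 it stood at 12.5, 11.7, 15.4 and 132 CPM, so library 4 set the higher mean there. The Pecam1 groups overlapped, and its median was 25.6 CPM in PDGFRα+ and 13.9 CPM in PDGFRα- libraries. Of the other marker lists, summed CPM ran, in PDGFRα+ and PDGFRα- libraries, from 1528 to 1974 and 1643 to 2213 for muscle and pericytes, 0 to 4.75 and 1.56 to 9.25 for glia, 0.344 to 14.4 and 3.01 to 25.6 for interstitial cells of Cajal, and 0.0410 to 13.4 and 0.0503 to 3.43 for mesothelium.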

Additional observations from a re-analysis of the deposited data

Results flagged for a closer look

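Among the 18 groups of 4 values (9 genes in 2 fractions), 2 had a library far from the other 3 by Dixon's criterion, which chance meets in about 1 of 20 groups. Both were PDGFRα- library 1. Mmp10 stood at 12.7 CPM there, with the next PDGFRα- library at 1.41 CPM. Mmp14 stood at 851.7 CPM there, with the next at 671 CPM. The same library was also the highest of its fraction in Mmp3 (73.4 CPM), Timp1 (20.2 CPM) and, narrowly, Mmp2 (1013 CPM, with the next at 1009 CPM). In Timp3 it was the lowest of its fraction (116 CPM, with the next at 204 CPM).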

How the results depend on the processing

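Of 133 values for single MMP and TIMP genes under 15 alternatives, 123 kept their direction and their side of the threshold, 3 passed it and 7 changed sign. Mmp10 kept a positive log2 fold change under all 15, from 3.57 to 6.05, and passed with DESeq2 (4.02) and without PDGFRα- library 1 (6.05). Mmp9 passed with no filter on low counts (-3.92, edgeR adjusted p = 0.0104), where 29254 genes were tested and 277 called. The sign changed for Mmp3 with the replicate block (-0.12), without PDGFRα+ library 1 (-0.48) and without PDGFRα- library 4 (-0.16), for Mmp13 with limma-voom (-0.34) and without PDGFRα+ library 4 (-0.38), and, without PDGFRα- library 1, for Mmp14 (0.0301) and Timp3 (-0.0609). None of these 7 values passed the threshold, and the cause was not tested. Leave-one-out ranges were 3.57 to 6.05 for Mmp10, -4.36 to -1.96 for Mmp9, -0.48 to 0.35 for Mmp3, -0.38 to 1.45 for Mmp13, -0.12 to 0.03 for Mmp14, 0.10 to 0.28 for Mmp2, 0.0065 to 0.90 for Timp1, -0.40 to -0.19 for Timp2 and -0.06 to 0.32 for Timp3.

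Over all genes, 30 were higher and 8 lower, against 156 and 116 with DESeq2, 167 and 110 with no filter and 209 and 146 with the replicate block, and 7 to 39 and 0 to 11 when 1 library was left out. Of the 9 genes, 1 was called higher with DESeq2, 0 to 1 with 1 library left out, and 1 lower with no filter. Of the other MMP and TIMP genes, 1 was lower with DESeq2 (Mmp27) and 1 with no filter (Mmp7). Of the activation and uptake genes, 1 was higher with no filter (Serpine2) and 3 with the block (Serpine2, Cd44 and Thbs2). Of the inducing genes, 2 were lower with no filter (Fos and Jun) and 4 with the block (Fos, Jun, Junb and Il6st). The difference of the mean log2 TIMP to MMP ratio, PDGFRα+ minus PDGFRα-, was -0.38, with -0.43 to -0.30 when 1 library was left out and -0.29 without division by length.

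Replicate numbers occur in both fractions. For libraries with the same number, the correlation of their deviations (log2 CPM minus the fraction's mean, 15643 genes) was 0.023 to 0.248, below 0.1 for number 3. For 7 of 8 libraries the best match was the one with that number, and the authors' model has a term for it. The labels do not say what a number stands for, so whether the libraries are pairs is not known. The main test takes no account of the numbers and called 30 higher and 8 lower genes, against 209 and 146 with the block. With the replicate block 0 of the 9 genes were called (Mmp10 log2 fold change 4.71, edgeR adjusted p = 0.135). Levels up to 0.123 CPM for Mmp13 in PDGFRα+ library 2 and up to 0.151 CPM for Mmp9 in PDGFRα- library 2 could not be told from the 0 counts there.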
